A study of Homo sapiens with 8 samples.

Results

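The CC chemokines followed here are CCL2, CCL7, CCL8, CCL11, CCL20 and CCL26, chosen by name as chemokines that fibroblasts can make, and they are 6 of the 27945 gene rows of the count table. Nascent RNA was measured by fast global run-on sequencing (fastGRO-seq), which labels the RNA that engaged polymerases extend in isolated nuclei, in IMR90 cells, a line of human embryonic lung fibroblasts. The cells carried ER:RAS, an oncogenic H-RAS fused to the estrogen receptor, and there were 4 groups of 2 libraries. Control cells were not induced and are labelled wild type, with no short hairpin RNA (shRNA) named. The other 3 groups were made senescent, with 100 nM 4-hydroxytamoxifen and harvest on day 6 in the study's methods, and carried a non-targeting shRNA (shControl), an shRNA to METTL3 or an shRNA to METTL14, which together form the core of the m6A methyltransferase complex. Since no shRNA or empty vector is named for control cells, senescence and shRNA infection cannot be told apart in any comparison with them. Each target was knocked down with 1 construct, all cells derive from 1 line, and p-values therefore measure the spread between these libraries. As these are bulk samples, fewer cells of a type and less RNA per cell cannot be told apart.

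CC chemokines are small secreted proteins with a pair of adjacent cysteines that recruit leukocytes through G-protein-coupled receptors. CCL2, CCL7 and CCL8 attract monocytes, mainly through CCR2 and related receptors. CCL11 and CCL26 are eotaxins that attract eosinophils through CCR3, and CCL20 attracts dendritic cells and lymphocytes through CCR6. Senescent fibroblasts secrete many chemokines as part of the senescence-associated secretory phenotype (SASP), and nuclear factor kB (NF-kB) is a well-known activator of their genes.

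CCL2, CCL7, CCL11 and CCL8 lie in that order on the plus strand of chromosome 17 of hg19, with starts 14.9 kb, 30.4 kb and 63.8 kb beyond that of CCL2. The counts cover whole genes with their introns. CCL2 (NM_002982) was counted over chr17:32582296-32584220, where the canonical transcript has 3 exons and introns make up 61.4% of its span. CCL20 (NM_001130046) was counted over chr2:228678558-228682280 on the plus strand, with 4 exons and 77.6% intron. CCL7 (chr17:32597235-32599261), CCL11 (chr17:32612687-32615199) and CCL8 (chr17:32646066-32648421) have 3 exons each. CCL26 was counted over chr7:75398842-75419064 on the minus strand, whereas its canonical transcript, also with 3 exons, spans only chr7:75398856-75401529. None of the 6 counted spans overlapped another row of the table. This matters because the counts did not separate strands in effect: 315 gene pairs were found with 1 gene (100 counts or more in all) lying wholly within another of opposite orientation, and in 313 of them the enclosing row was never the lower one in any library.

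The promoters are shown because CCL20 went from 0 or 1 read in control libraries to many in senescent ones while CCL7 and CCL8 stayed at or near 0. RefSeq promoter windows (GRCh38.p14) matched 4 of the 6 genes, CCL7, CCL8, CCL20 and CCL26. That of CCL26 lies before its counted start, and not before the start of its canonical transcript. The 250 bases before the CCL20 start, chr2:227813592-227813841 on the plus strand, are identical to the hg19 bases just before the counted start, chr2:228678308-228678557. In the line below, capitals mark matches to GGGANNNNCC, an NF-kB-like pattern, on either strand, and TATAAA on the strand of the gene.
CCL20: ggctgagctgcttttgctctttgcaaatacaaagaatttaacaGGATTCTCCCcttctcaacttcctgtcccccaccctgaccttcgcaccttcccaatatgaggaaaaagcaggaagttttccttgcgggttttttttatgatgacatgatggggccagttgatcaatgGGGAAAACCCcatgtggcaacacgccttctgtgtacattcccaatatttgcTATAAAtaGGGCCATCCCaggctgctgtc
The 60 bases just before the start of CCL7 (chr17:34270161-34270220) and CCL8 (chr17:34319375-34319434), both GRCh38.p14 and plus strand, are given for comparison, with TATAAA and a TGANTCA match (the AP-1 pattern) in capitals. Unlike the CCL20 window, they do not match the hg19 bases just before the counted starts.
CCL7: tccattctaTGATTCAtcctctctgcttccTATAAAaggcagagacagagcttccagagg
CCL8: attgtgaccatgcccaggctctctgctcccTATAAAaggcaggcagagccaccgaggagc
TATAAA stood within 60 bases of the start in CCL20, CCL7 and CCL8, 3 of the 4 windows, against 2.78% of the 35116 promoters in the table. GGGANNNNCC was matched 3 times in the 250 bases of CCL20, at -207 to -198, -80 to -71 and -21 to -12 from the start, in none of the other 3 windows and in 22.6% of all promoters. TGANTCA was present only in CCL7 among the 4 (6.57% of all promoters), and TTGCNNAA, the C/EBP pattern, only in CCL26 (9.05%). The patterns did not overlap one another in these windows, and their letters were chosen after the windows had been read. A match describes the letters and is not a measured binding site.

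Only CCL2 and CCL20 were transcribed at a level that could be tested. CCL8 and CCL11 had no count in any of the 8 libraries, which allows up to 3 counts each over all of them. CCL7, a monocyte attractant, had 4 counts in all, 1 in senescent shControl replicate 2, 2 in shMETTL14 replicate 1 and 1 in shMETTL14 replicate 2. CCL26 had 5 counts, 2 in senescent shControl replicate 1, 2 in shMETTL14 replicate 1 and 1 in shMETTL14 replicate 2. These few reads fell in senescent shControl and shMETTL14 libraries, with 0 in the control and shMETTL3 libraries, a difference that was not detectable at this depth: without a filter on low counts, the smallest adjusted p of CCL7 or CCL26 in any of the 6 comparisons was 0.395 (edgeR quasi-likelihood test, Benjamini-Hochberg adjustment).

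Levels are given as CPM, a gene's reads per 1000000 of the library total after scaling by its TMM factor, and as RPKM, which also divides by the counted length in kb, where genes are set side by side. In CCL2, raw counts were 66 and 56 in control, 23 and 28 in senescent shControl, 14 and 6 in shMETTL3, and 45 and 38 in shMETTL14. Its level was 2.99 ± 0.38 CPM in control, 1.63 ± 0.16 in senescent shControl, 0.559 ± 0.342 in shMETTL3 and 2.37 ± 0.20 in shMETTL14 (SD, n = 2 each). The 4 groups did not overlap and ran from control through shMETTL14 and senescent shControl to shMETTL3, although control and shMETTL14, and shMETTL14 and senescent shControl, did not pass the test between them.

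CCL20, the CCR6 ligand, had raw counts of 0 and 1 in control, 104 and 99 in senescent shControl, 30 and 37 in shMETTL3, and 243 and 176 in shMETTL14. Its level was 6.50 ± 0.50 CPM in senescent shControl, 1.84 ± 0.17 in shMETTL3 and 11.9 ± 2.3 in shMETTL14 (SD, n = 2 each), while both control libraries were at or under 0.0486 CPM, that is, 1 read. The 4 groups were again apart, in the order shMETTL14, senescent shControl, shMETTL3 and control. The order therefore differed between the members in where control stood, at the top for CCL2 and at the bottom for CCL20, and was the same among the 3 senescent groups. The plot of levels by library shows both patterns.

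**Figure D1:**
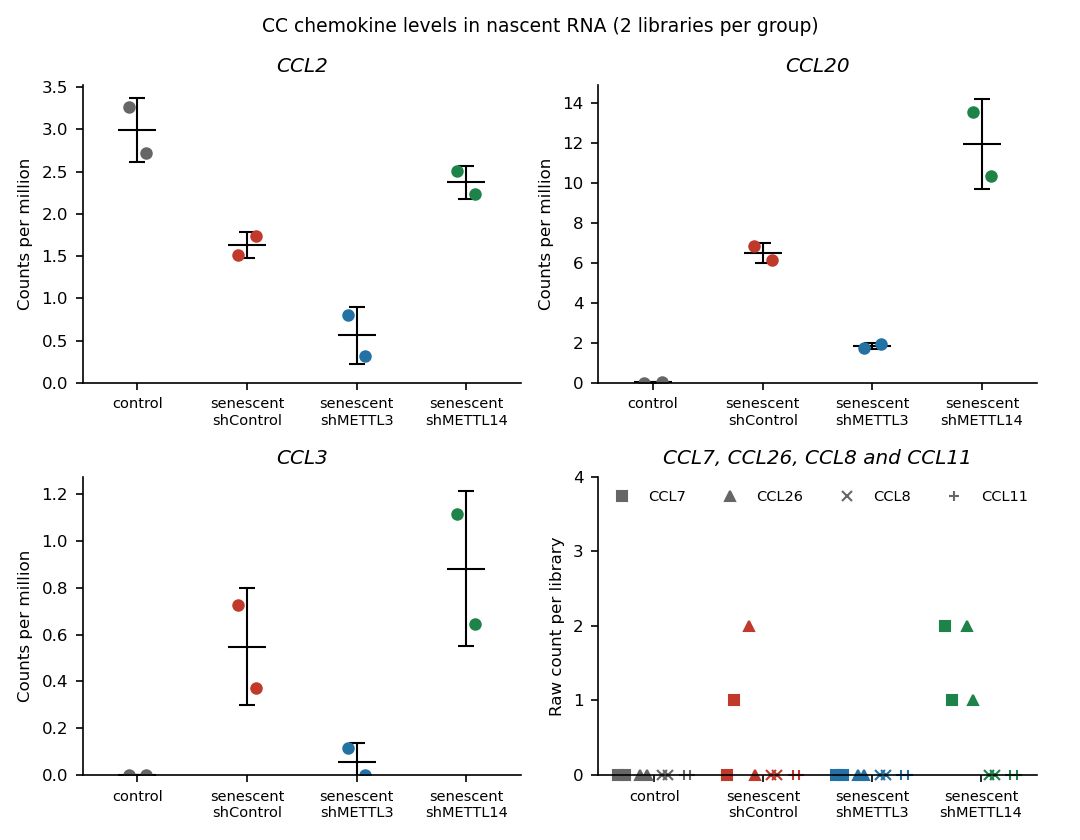
Levels of the CC chemokines in each library. Points are libraries; in the CCL2, CCL20 and CCL3 panels the y axis is CPM, the horizontal line is the mean of 2 libraries and the bar is 1 SD, and the last panel gives raw counts of CCL7, CCL26, CCL8 and CCL11. CCL2 was highest in control, CCL20 was highest in shMETTL14 and at 0 or 1 read in control, and the other 4 members never passed 2 reads.

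Per unit length, CCL2 stood at 1.55 ± 0.20 RPKM in control, where CCL20 had at most 1 read. In senescent shControl cells the order was turned, with CCL20 at 1.75 ± 0.14 RPKM and CCL2 at 0.846 ± 0.081 (SD, n = 2). In shMETTL14 cells CCL20 reached 3.21 ± 0.61 RPKM and CCL2 1.23 ± 0.10. In shMETTL3 cells both were low, CCL20 at 0.494 ± 0.046 RPKM and CCL2 at 0.291 ± 0.178. CCL20 was the higher of the pair in both shMETTL3 libraries, by 1.11 times in replicate 1 and 3.19 times in replicate 2.

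Across all 28 CC ligand rows of the table, CCL2 and CCL20 took most of the counts, and the other ligands together 0% to 10.6% of those of a library. CCL2 held 97.1% and 98.2% of the CC ligand counts in the control libraries and 13.95% to 29.2% in the 6 senescent libraries, where CCL20 held 62.5% to 86.1%. Of the 28 ligands, 18 had no count in any library, 7 had at most 2 in any library and 3 reached 10, the third being CCL3, a macrophage inflammatory protein. CCL3 had 0 and 0 counts in control, 11 and 6 in senescent shControl, 2 and 0 in shMETTL3 and 20 and 11 in shMETTL14, so that its groups fell in the same order as those of CCL20 but overlapped between senescent shControl and shMETTL14 and between shMETTL3 and control. Near-identical copies of CCL3 exist in the genome, so its counts are uncertain.

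The ratio of CCL20 to CCL2 within a library does not depend on how libraries are scaled. It was 0 (0 of 66) and 0.0179 in control, 4.52 and 3.54 in senescent shControl, 2.14 and 6.17 in shMETTL3, and 5.40 and 4.63 in shMETTL14. Exact 95% intervals, which cover counting error only, reached no higher than 0.104 in control and no lower than 1.10 in any senescent library. These are ratios of raw counts, not divided by the counted lengths, and the span of CCL20 is the longer. The ratio thus separated control from all senescent libraries, whereas the 3 senescent groups overlapped, the shMETTL3 libraries lying on both sides of the others. With 2 libraries against 2, an exact permutation test cannot go below p = 0.33, so these ratios are given as a description.

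**Figure D2:**
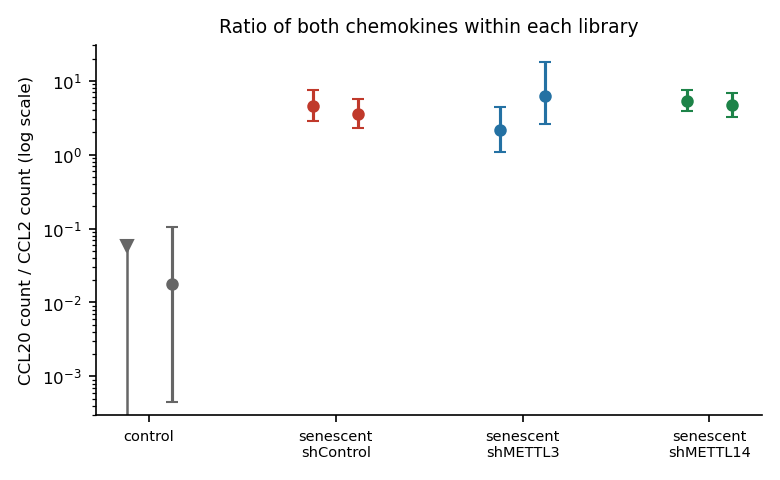
CCL20 count divided by CCL2 count in each library, not corrected for counted length, on a log scale. Points are libraries and bars exact 95% intervals for counting error; the triangle is the upper limit, 0.0575, of the control library with no CCL20 read. The control library with 1 CCL20 read lies at 0.0179 and the 6 senescent libraries lie between 2.14 and 6.17.

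The first comparison asked how transcription differs in RAS-induced senescence. In senescent shControl against control cells, CCL20 rose from 1 read over both control libraries to 203, a ratio of 265 after scaling (exact 95% counting interval 47.0 to 10520), and the test across all genes called it (adjusted p = 1.22e-12). CCL2 moved the other way and fell 1.83-fold (log2 fold change -0.87, SE 0.31, adjusted p = 0.0342). CCL20 was thus the 1 member called higher and CCL2 the 1 called lower, beside 13.3% of the 12844 genes tested called higher and 13.3% called lower. All calls are at an adjusted p under 0.05 in edgeR's quasi-likelihood test. The size of the CCL20 rise rests on that 1 control read: its fitted log2 fold change, which is no bound, was 7.69 with all libraries, 6.87 without control replicate 1 and 9.84 without control replicate 2, which held the read. The rise of CCL20 was called in all 17 alternative settings, but the fall of CCL2 was lost with DESeq2 (log2 fold change -0.87, adjusted p = 0.166), at a threshold of 0.01, and on leaving out control replicate 1 (-0.73, adjusted p = 0.213), control replicate 2 (-0.99, 0.064), senescent shControl replicate 1 (-0.77, 0.22) or 2 (-0.96, 0.11), or shMETTL14 replicate 1 (-0.84, 0.0558).

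The next comparisons asked what loss of each methyltransferase subunit does in senescent cells. METTL3 itself had 77 and 47 counts in senescent shControl and 16 and 19 in shMETTL3 (log2 fold change -2.04, SE 0.31, adjusted p = 1.79e-05). METTL14 had 24 and 28 counts in senescent shControl and 18 and 14 in shMETTL14 (log2 fold change -0.86, SE 0.34, adjusted p = 0.0763), lower in both libraries but not past the threshold. An shRNA acts mainly on mature RNA, so nascent counts are only an indirect check of the labels.

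After METTL3 knockdown, both testable members fell. CCL20 fell 3.52-fold (log2 fold change -1.81, SE 0.23, adjusted p = 1.96e-06), with all 17 alternatives on the same side of the threshold. CCL2 fell 2.93-fold (log2 fold change -1.55, SE 0.41, adjusted p = 0.00645). These are 2 of 2 members tested, beside 11.2% of genes called lower and 12.2% called higher. The CCL2 value leaned on 1 library: it was -2.35 without shMETTL3 replicate 1 (adjusted p = 6.88e-04), which had 14 reads, and -1.04 without replicate 2 (adjusted p = 0.0917), which had 6, and the call was also lost without senescent shControl replicate 2 (-1.46, adjusted p = 0.0657). Scaled by library totals alone, under which the median of all genes stood at 0.58, CCL20 stood at -1.20 (adjusted p = 1.29e-04) and CCL2 at -0.95 (adjusted p = 0.0564).

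After METTL14 knockdown, CCL20 rose 1.84-fold (log2 fold change 0.88, SE 0.18, adjusted p = 9.23e-04), beside 9.15% of genes called higher and 12% called lower. CCL2 was not called, with a log2 fold change of 0.54 (SE 0.32, adjusted p = 0.246), and 2 SE on either side span -0.10 to 1.18, which leaves room for no change and for a doubling. Without shMETTL14 replicate 1, the library with 243 CCL20 reads, the rise of CCL20 was 0.65 and no longer called (adjusted p = 0.0877). With library totals alone, under which the median of all genes stood at 0.351, CCL2 was called as well (0.89, adjusted p = 0.0302).

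Set directly against each other, the knockdowns differed in both members. CCL20 was 6.47-fold higher after METTL14 than after METTL3 knockdown (log2 fold change 2.69, SE 0.22, adjusted p = 1.19e-09) and CCL2 was 4.26-fold higher (log2 fold change 2.09, SE 0.38, adjusted p = 9.71e-05). These are 2 of 2 members called higher, beside 16.5% of genes called higher and 18.7% called lower. Both calls held in all 17 alternatives, CCL20 between 2.44 and 2.88 and CCL2 between 1.58 and 2.89, the latter value without shMETTL3 replicate 1. The plot of fold changes sets these comparisons side by side.

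**Figure D3:**
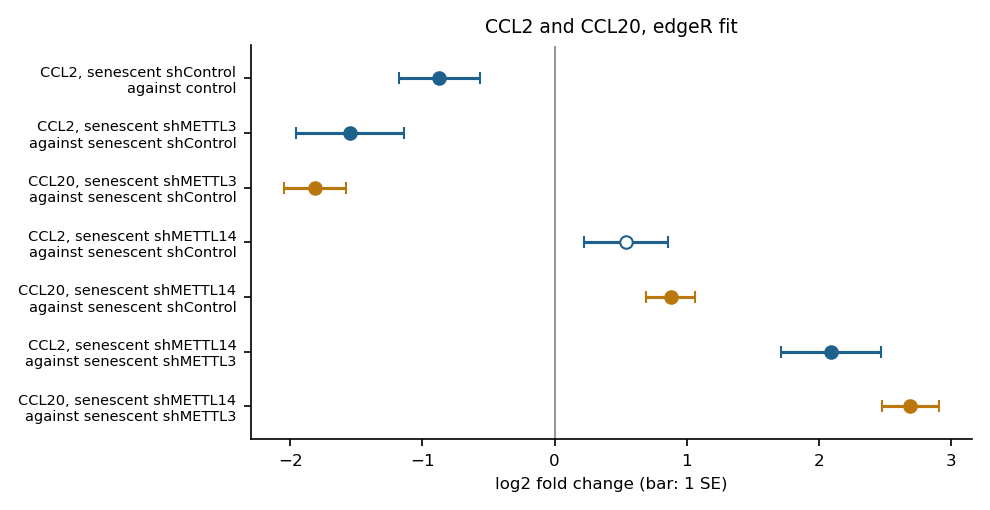
log2 fold changes of CCL2 (blue) and CCL20 (ochre) in each knockdown against senescent shControl and in METTL14 against METTL3 knockdown, and of CCL2 alone in senescent shControl against control. Comparisons of the knockdowns with control are not plotted. Points are estimates of the edgeR fit over 8 libraries, bars are 1 SE, and filled points passed an adjusted p of 0.05. CCL2 and CCL20 lie to the left after METTL3 knockdown (-1.55 and -1.81) and to the right in METTL14 against METTL3 knockdown (2.09 and 2.69).

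Against control cells, neither knockdown brought CCL20 back to the control level. With METTL3 knockdown 67 reads stood against 1, a ratio of 75.2 after scaling (exact 95% counting interval 13.1 to 3016, adjusted p = 2.34e-08), and with METTL14 knockdown 419 reads stood against 1, a ratio of 489 (87.3 to 19370, adjusted p = 9.32e-15). The single control read was in replicate 2, and leaving out either control library kept both calls but moved the fitted log2 fold change, from 5.88 to 5.05 without control replicate 1 and 8.01 without replicate 2 for shMETTL3, and from 8.57 to 7.75 and 10.72 for shMETTL14. CCL2 was 5.36-fold lower than control in shMETTL3 cells (log2 fold change -2.42, SE 0.36, adjusted p = 4.40e-06). Its log2 fold change there was -3.21 without shMETTL3 replicate 1 and -1.90 without replicate 2. In shMETTL14 cells CCL2 was not called against control (-0.33, SE 0.28, adjusted p = 0.369). The background in these comparisons was 20.1% of genes higher and 20.1% lower for shMETTL3, and 19.7% higher and 20.5% lower for shMETTL14.

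The receptors of these ligands, which sit mostly on leukocytes, were close to silent. None of the 15 CC and atypical chemokine receptor rows passed the filter on low counts, and only ACKR4, a scavenger receptor of CC ligands, reached 10 counts in a library, with 3 and 0 in control, 5 and 7 in senescent shControl, 8 and 14 in shMETTL3 and 5 and 3 in shMETTL14. Defining leukocyte markers were low, with CD3E, MS4A1 and FCER1A at 0 in all libraries, PTPRC at 4 counts or fewer, ITGAM at 6 or fewer and CSF1R at 1 to 7. The summed level of the 10 leukocyte markers was 1.17 to 1.19 CPM in control and 2.12 to 4.55 in the senescent libraries, and the 1 marker that reached 10 counts was CD68, a lysosomal protein that other cells also make, with 17 and 16 counts in control and 26 to 60 in senescent libraries. All 10 fibroblast markers were detected, and their summed level was 1081 to 1164 CPM in control, 363 to 475 in senescent shControl, 433 to 535 in shMETTL3 and 179 to 249 in shMETTL14. Endothelial markers, 2 of 6 of which reached 10 counts in a library, summed to 5.68 to 6.46 CPM in control, 3.36 to 3.54 in senescent shControl, 3.15 to 3.97 in shMETTL3 and 0.892 to 1.70 in shMETTL14. Epithelial markers, 2 of 8 of which reached 10, summed to 2.67 to 2.87 CPM in control, 1.61 to 3.03 in senescent shControl, 1.22 to 1.32 in shMETTL3 and 3.41 to 4.35 in shMETTL14, and these 2, KRT8 and KRT18, whose rows overlap, were called higher in METTL14 against METTL3 knockdown (1.38, adjusted p = 0.014, and 1.63, adjusted p = 0.0014), as CCL2 and CCL20 were. Their part in the CC chemokine results was not tested.

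Genes of the NF-kB pathway were read from a list of 16 subunits, inhibitors and kinases, all of which were tested. In senescent shControl against control cells 6 rose and 1 fell (median log2 fold change 0.39, against -0.03 over all genes), where 13.3% of all genes tested were called in each direction. TNFAIP3, which encodes the inhibitor A20, rose (26 and 40 to 126 and 132 counts, log2 fold change 2.35, adjusted p = 1.19e-08), as did the inhibitory protein gene TNIP1 (1.99, adjusted p = 7.61e-11), NFKBIZ, an atypical member of the IkB family (2.12, adjusted p = 5.38e-11), and NFKB1, the gene of the p50 subunit (0.69, adjusted p = 0.00119). These moved up together with CCL20 and against CCL2. The gene that fell was IKBKG, a subunit of the IkB kinase complex (-1.27, adjusted p = 0.0163), named here after its values were seen and uncertain because a near-identical pseudogene exists. Among the genes named with values, the rows of TNFAIP3, NFKBIZ, NFKB1, IKBKG, IKBKE, STAT6 and CD68 each overlap 1 other row, that of ACKR4 overlaps 2 and that of JAK1 overlaps 4, so that reads may be shared.

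After METTL3 knockdown, when both chemokines fell, 1 gene of the list rose and 1 fell (median -0.13), no more than the 12.2% and 11.2% of all genes called each way. The riser was NFKB1 (log2 fold change 0.90, adjusted p = 4.13e-05), while TNFAIP3, with 124 and 200 counts, was not called (0.10, adjusted p = 0.737), and the gene that fell was again IKBKG (-1.55, adjusted p = 0.0406), with 13 and 1 counts in shMETTL3. After METTL14 knockdown, 10 of the 16 rose and 0 fell (median 0.87, against -6.39e-05 over all genes), beside 9.15% and 12% of all genes. TNFAIP3 reached 964 and 741 counts (log2 fold change 2.56, adjusted p = 2.14e-11) and NFKB1 763 and 670 (1.60, adjusted p = 4.26e-09), NFKBIZ rose by less (0.43, adjusted p = 0.027), and TNIP1 was not called (0.09, adjusted p = 0.701). In METTL14 against METTL3 knockdown 10 were higher and 1, the kinase gene IKBKE, was lower (-0.72, adjusted p = 0.0367), with a median of 1.00, beside 16.5% and 18.7% of all genes.

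**Figure D4:**
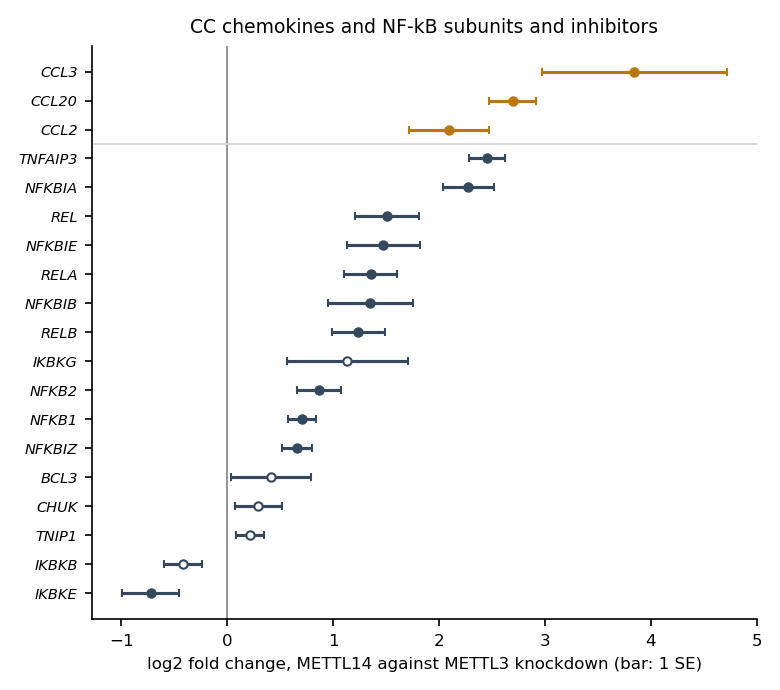
log2 fold changes of CCL3, CCL20 and CCL2 (ochre) and of the 16 NF-kB subunits, inhibitors and kinases (dark) between METTL14 and METTL3 knockdown. Bars are 1 SE and filled points passed an adjusted p of 0.05. CCL20 (2.69) and CCL2 (2.09) lie near TNFAIP3 (2.45), and 10 of the 16 list genes are filled to the right of 0.

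Eotaxins are classical targets of IL-4 and IL-13, and here CCL11 and CCL26 were at or near 0. The cytokine genes were low too, with IL13 at 0 in all libraries and IL4 at 2 counts or fewer. IL2RG was also at 0, while other parts of that pathway were transcribed. Of 13 genes of IL-4 and IL-13 signalling 8 could be tested. In the comparisons that follow the calls among them were few, 0 to 2 each way, beside the shares over all genes (13.3% each way in senescence, 12.2% higher and 11.2% lower after METTL3 knockdown, 9.15% and 12% after METTL14 knockdown, 16.5% and 18.7% in METTL14 against METTL3 knockdown), and are given as values of single genes. In senescence 2 rose and 0 fell (median log2 fold change 0.09): SOCS3, a feedback inhibitor of cytokine signalling (44 and 43 to 122 and 105 counts, log2 fold change 1.77, adjusted p = 5.10e-07), and IL13RA2, a decoy receptor for IL-13 (0 and 1 to 24 and 24 counts, adjusted p = 9.96e-06). After METTL3 knockdown SOCS3 fell with CCL2 and CCL20 (to 38 and 29 counts, log2 fold change -1.97, adjusted p = 4.83e-07) and IL4R, the receptor chain that IL-4 and IL-13 share, rose (0.43, adjusted p = 0.0426), with a list median of -0.49. After METTL14 knockdown the 1 call was a fall of STAT6, the transcription factor of the pathway (-1.07, adjusted p = 0.0032, list median -0.10), while SOCS3 was not called (-0.36, adjusted p = 0.205). In METTL14 against METTL3 knockdown 1 of the 8, SOCS3, was higher (1.61, adjusted p = 6.21e-06) and 1, JAK1, a kinase of the pathway named here after its values were seen, was lower (-0.35, adjusted p = 0.0382).

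On chromosome 17, 18 further rows reached within 1 Mb of the CCL2 start, and 8 of them were tested. In senescence 1 of these rose and 2 fell, after METTL3 knockdown 1 fell, and after METTL14 knockdown 1 rose and 1 fell, with median log2 fold changes of -0.20, -0.09 and 0.36. These counts of 0 to 2 among 8 stand beside the shares over all genes, 13.3% each way in senescence, 12.2% higher and 11.2% lower after METTL3 knockdown, and 9.15% higher and 12% lower after METTL14 knockdown. SLFN5, 988 kb from CCL2, rose in senescence (0.52, adjusted p = 0.00478) where CCL2 fell, and fell after METTL3 (-0.44, adjusted p = 0.0194) and METTL14 knockdown (-0.72, adjusted p = 4.45e-04). RAD51D, a DNA repair gene, fell in senescence (-1.81, adjusted p = 0.00743), as did the read-through row RAD51L3-RFFL (-0.60, adjusted p = 0.0175), which overlaps it, so that their reads cannot be told apart. UNC45B rose after METTL14 knockdown (1.00, adjusted p = 0.00201). None of these neighbours was called lower in both senescence and METTL3 knockdown, as CCL2 was. RAD51D, with 7 and 1 counts in shMETTL3, stood at -0.996 after METTL3 knockdown (adjusted p = 0.337). In METTL14 against METTL3 knockdown 2 of the 8 were higher and 0 lower (median 0.68), beside 16.5% and 18.7% of all genes. They were ASIC2 (1.55, adjusted p = 0.0165) and UNC45B (0.85, adjusted p = 0.00341), and CCL2 was higher there too. After METTL3 knockdown ASIC2 stood at -1.35 (adjusted p = 0.0588).

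**Figure D5:**
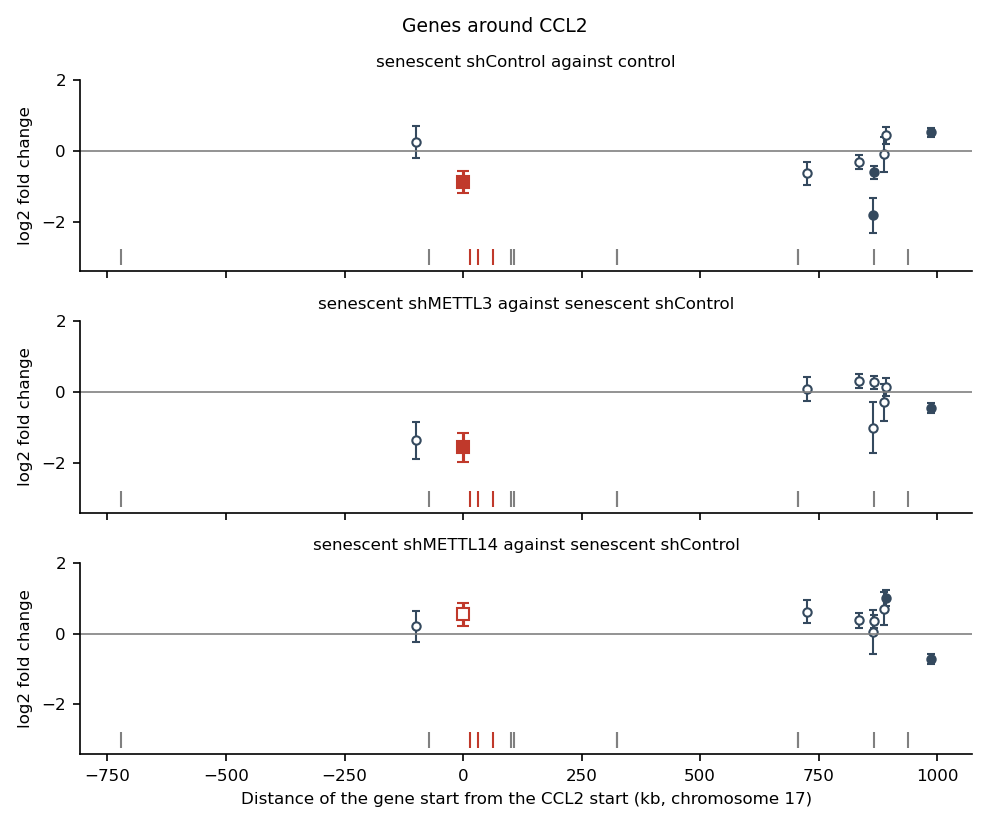
log2 fold changes of CCL2 (red square) and of the 8 tested genes around it (dark points) against the distance of the gene start from the CCL2 start, in 3 comparisons. Bars are 1 SE, filled symbols passed an adjusted p of 0.05, and ticks at the bottom mark rows too low to test, with CCL7, CCL11 and CCL8 in red. The nearest tested row, ASIC2, starts at -98.5 kb and was not called in these 3 comparisons. In METTL14 against METTL3 knockdown, which is not plotted, ASIC2 was called higher (1.55, edgeR adjusted p = 0.0165). The other 7 tested rows start 725 kb or more beyond the CCL2 start.

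Finally, the genes whose levels across the 8 libraries were most like those of each member were listed, by Pearson r of log2 CPM among the 3883 genes that averaged 100 counts or more. For CCL2 these were KMT2D, a histone methyltransferase gene (r = 0.998), ZYX (r = 0.983) and AES (r = 0.983), and KMT2D had 306 and 277 counts in control, 131 and 149 in senescent shControl, 94 and 56 in shMETTL3 and 239 and 213 in shMETTL14. For CCL20 they were SLC39A14, a zinc transporter gene (r = 0.994), APMAP (r = 0.993) and TTL (r = 0.990), and SLC39A14 had 143 and 162 counts in control, 391 and 391 in senescent shControl, 270 and 281 in shMETTL3 and 524 and 506 in shMETTL14. The 8 libraries share their groups, so a gene that differs between groups in the same order has a high r, and the values are a description. The size of the change was not shared: SLC39A14 rose by 1.74 on the log2 scale in senescence, while CCL20 went from 1 read to 203.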

How the data were processed

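The 8 fastGRO-seq libraries fall into 4 groups of 2. The authors aligned reads to hg19 (STAR is named in the submitters' processing notes) and counted them over whole genes with HOMER. The deposited values are raw counts per gene, not normalized, with replicates kept apart, and the authors also give the counted length in bases. Library totals were 14897360 to 20306299, of which ribosomal RNA rows took 86.2% to 92.5%, which left 1513930 to 2048475 counts on other genes. The Drosophila spike-in described in the methods was not used here, and a shift common to every gene is therefore out of reach.

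Groups were tested by edgeR 4.0.16 (R 4.3.3): filterByExpr with a minimum count of 10, TMM factors, 1 quasi-likelihood fit over 4 groups, and Benjamini-Hochberg adjustment over the 12844 genes tested. The study used DESeq2, which was run as an alternative (version 1.42.0) with 16 others. SE is the log2 fold change divided by the square root of F. A group at 0 is read against a floor of 3 counts over the group, and ratios on 1 to 3 counts carry exact 95% binomial counting intervals (scipy 1.17.1). On counts simulated for senescent shControl against control over 12436 tested genes, in which 200 genes had a log2 change of 1, edgeR recovered 194 and called 5 others, and DESeq2 recovered 186 and called 1 other. The changed genes were drawn only from rows with more reads over the 8 libraries than CCL2 (276) and CCL20 (690). All genes shared 1 spread. The recovery therefore does not tell how often such a change in CCL2 or CCL20 would be found.

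Replicate numbers did not pair the libraries. The members and gene lists were chosen with earlier results of these data known. Genes named besides the members are METTL3 and METTL14, other CC ligands and receptors with 10 counts in any library, up to 4 called genes of each pathway list by smallest adjusted p, the called neighbours within 1 Mb of CCL2, and the 3 genes most like each tested member. IKBKG, IKBKE, JAK1, IL4, IL13, IL2RG and ASIC2, and the marker genes named singly, were added after their values were seen.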

Additional observations from a re-analysis of the deposited data

Results flagged for a closer look

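The effects of the knockdowns on both testable members differed by a direct test of METTL14 against METTL3 knockdown. The log2 fold change was 2.69 for CCL20 (SE 0.22, edgeR adjusted p = 1.19e-09), with 243 and 176 reads in shMETTL14 against 30 and 37 in shMETTL3. It was 2.09 for CCL2 (SE 0.38, edgeR adjusted p = 9.71e-05), with 45 and 38 reads against 14 and 6. Each difference held in both libraries of each group. No group had more than 2 libraries, so single libraries were not screened as outliers.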

How the results depend on the processing

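Of 204 recomputed fold changes of CCL2 and CCL20 (17 alternatives, 6 comparisons), 192 kept their direction and side of the threshold, 11 lost the call, 1 gained it and 0 changed sign. The count of members called lower in senescence went from 1 to 0 with DESeq2 and with an adjusted p under 0.01, and lay between 0 and 1 when single libraries were left out. The count called lower after METTL3 knockdown went from 2 to 1 with library totals alone and lay between 1 and 2 without single libraries. The count called higher after METTL14 knockdown went from 1 to 2 with library totals alone and lay between 0 and 1 without single libraries. The cause was not tested, beyond fewer libraries leaving less information. With library totals alone the median of all genes stood at -0.53, 0.58 and 0.351 on the log2 scale in these 3 comparisons, so fold changes there are to be read against that median. With the replicate number as a block no call of CCL2 or CCL20 changed (CCL2 in senescence -0.86, adjusted p = 0.037), and deviations of equally numbered libraries correlated by -0.04 to 0.10, so the numbers do not pair them. A filter of at least 10 counts in every library left no member to test. Restricting the fit to protein-coding rows was chosen after seeing the data and changed no call. The spread between the shMETTL3 libraries was 5.26 times the sampling variance, against 1.56 to 2.52 in the other groups. Depth limits CCL7, CCL8, CCL11 and CCL26, for which 5 or fewer reads were found in all libraries together.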
